A study of Mus musculus with 6 samples.

Results

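The subject is the reads that lie antisense to the miRNA hairpin named in the count files. All rows with antisense in their name were taken, except those of the hairpins of miR-486, Gm25301, miR-378, miR-126, miR-144, miR-451, miR-22, miR-140 and miR-122, which were left out by name. That left 70 antisense rows of 1102 rows in all. The 6 antisense rows left out held 3155804 reads, and 2 of them had more reads than any of the 70, so every order of rows below is among the 70. The 70 rows name 54 hairpins, with 37 rows antisense to a 5p arm and 33 antisense to a 3p arm. The study has 1 group, hearts of male wild-type mice of the inbred strain C57BL/6J at 18 weeks of age. Its 6 libraries are named here heart 1 to heart 6 by their replicate numbers. No allele, agent or second condition is given in the labels, so the comparisons are between strands and between rows within the same hearts. The labels call the tissue whole heart, whereas the protocol describes the tips of the ventricles. The labels do not say in words that each sample is a different animal, so the spread between libraries may be in part technical.

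A miRNA is cut from a hairpin-shaped transcript, which leaves a short RNA from the 5′ side (the 5p arm) and another from the 3′ side (the 3p arm), and the seed near the 5′ end of the mature miRNA directs it to its targets. The arms of a hairpin are nearly complementary to each other, so the opposite DNA strand, if transcribed, can also fold into a hairpin, and at some places miRNA genes are annotated on both strands. The pair miR-24 and miR-3074 is such a case. An antisense row counts reads from the strand opposite to the hairpin it names, so what it holds depends on what is encoded on that opposite strand.

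The sequences below show what is annotated on that strand for several of the most abundant rows. At Gm24083 (chr9:108568295-108568414, GRCm38, minus strand), the hairpin named by the files reads as follows, 5′ to 3′, with the complements of miR-191-3p and then of miR-191-5p in capitals. The capitals are minus-strand sequence, and the miRNAs that they are complementary to are encoded on the plus strand, where the antisense reads lie.
Gm24083: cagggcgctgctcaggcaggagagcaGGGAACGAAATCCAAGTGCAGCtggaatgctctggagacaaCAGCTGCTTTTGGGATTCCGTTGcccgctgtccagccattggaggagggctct
The mature miRNAs that RefSeq (GRCm38.p6) lists on the read strand of the leading rows are given next with the seed, bases 2 to 8, in capitals. They stand in the order of Gm24083-3p, Mir3074-1-5p, Mir142-3p, Mir142-5p, Gm24111-3p, Gm25927-3p and Mir497-3p antisense.
mmu-miR-191-5p: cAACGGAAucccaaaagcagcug
mmu-miR-24-3p: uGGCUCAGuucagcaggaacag
mmu-miR-142a-5p: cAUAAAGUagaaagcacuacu
mmu-miR-142a-3p: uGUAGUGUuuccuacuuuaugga
mmu-let-7f-5p: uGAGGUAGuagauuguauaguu
mmu-let-7e-5p: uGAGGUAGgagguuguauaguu
mmu-miR-497a-5p: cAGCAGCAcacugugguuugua
let-7f-5p and let-7e-5p share the seed GAGGUAG, and the others shown have seeds of their own.

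The antisense rows fell into classes of very different size. In 33 rows, naming 19 hairpins, a miRNA hairpin is annotated on the other strand at the same place, and these rows held 735596 reads over the 6 hearts. In the other 37 rows, naming 35 hairpins, the annotation has no hairpin on the other strand, and these rows without a partner held 113 reads. The first class therefore took 99.98% of the reads of the 70 rows, and the row of Gm24083-3p alone took 68.9%. A row with a hairpin on the other strand had a median of 25 reads (range 1 to 506601), and a row without one had a median of 1 read (range 1 to 28).

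Rows with a hairpin on the other strand took 2.49% ± 0.0777 (SD, n = 6) of all counts, with 2.55%, 2.55%, 2.48%, 2.44%, 2.55% and 2.36% in hearts 1 to 6. Rows without one took 3.87 ± 1.04 CPM (SD, n = 6), where CPM stands for the reads of a row per 1000000 counts of its library. Their reads were 18, 29, 16, 15, 19 and 16 in hearts 1 to 6. Within a heart the ratio of the first class to the second lay between 4373 and 8278. It was above 1 in 6 of 6 hearts, with a mean log2 ratio of 12.69 ± 0.33 (SD, n = 6) and an exact two-sided permutation p of 0.03125, the smallest that 6 libraries allow. The 14 rows with a mean of at least 10 reads per library made up nearly all of this difference. Without them, the other 19 rows of the first class held 225 reads against 113, a log2 ratio of 0.95 ± 0.46 (SD, n = 6; exact p = 0.03125). These 19 rows were set apart by their own counts, after the data were seen. This second p is therefore a description and lends no support. Heart 2 held 25.7% of the reads of the class without a partner and 16.8% of all counts, so its ratio was the lowest.

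**Figure D1:**
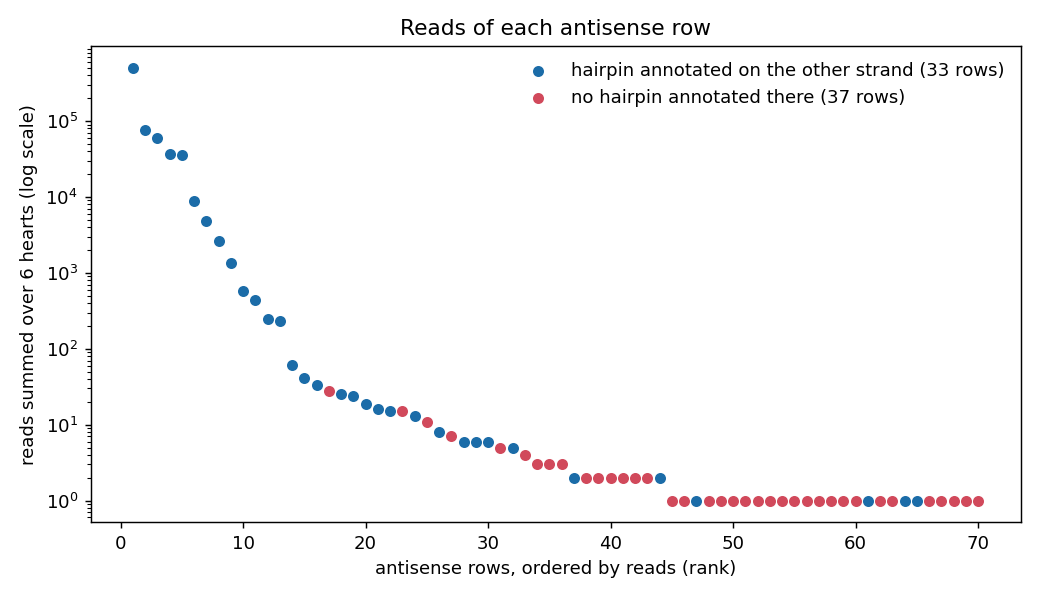
Reads summed over the 6 hearts (vertical axis, log scale) for each of the 70 antisense rows, ordered by reads (horizontal axis), with blue points for the 33 rows that have a hairpin annotated on the other strand and red points for the 37 that do not. The 14 highest points are blue, and no red point lies above 28 reads.

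Hairpins were also counted in the reverse direction, starting from the annotation. Of the 30 hairpins named in the files that have another hairpin on the opposite strand, 22 (73.3%) had an antisense row with a read, those left out by name included. Of the 670 named hairpins with no such partner, 36 (5.37%) had one. An antisense row is listed only where at least 1 of the 6 libraries had a read.

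The most abundant of the 70 rows lies on the strand of miR-191, a broadly expressed miRNA. Gm24083-3p antisense (chr9:108568321-108568341) held 84309, 87839, 76074, 65734, 102363 and 90282 reads in hearts 1 to 6, or 17186 ± 738 CPM (SD, n = 6). The plus strand there carries Mir191, in an exon of the noncoding gene 4833445I07Rik. Gm24083-5p antisense, at the place of miR-191-3p, held 76, 83, 76, 94, 108 and 139 reads. All 6 hearts had far more reads at the 5p arm of Mir191, which took 99.89% ± 0.027 (SD, n = 6) of both arms.

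The rows at Mir3074-1 lie on the strand of Mir24-1, a miRNA gene of a cluster with miR-23b and miR-27b that is well known in vascular cells. Mir3074-1-5p antisense (chr13:63301242-63301263) had 12543, 11797, 8858, 9989, 19660 and 13871 reads, or 2562 ± 393 CPM (SD, n = 6). Mir3074-1-3p antisense, at the place of miR-24-1-5p, had 91, 88, 60, 51, 82 and 71 reads. At Mir24-1 the 3p arm thus prevailed, with the 5p arm at 0.594% ± 0.134 (SD, n = 6) of both. The read strand runs through an exon of 2010111I01Rik, and the strand of Mir3074-1 through an intron of Fancc. Heart 5 was highest and heart 3 lowest for the 5p row on the CPM scale, a 1.56-fold range.

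By position, the rows at Mir1b lie on the strand of the second gene copy of miR-1, the abundant miRNA of cardiac and skeletal muscle. Mir1b-5p antisense had 8280, 10634, 6817, 7879, 14366 and 12482 reads, or 2016 ± 297 CPM (SD, n = 6). Mir1b-3p antisense had 7, 8, 2, 2, 4 and 1. These lie opposite Mir1b, on the strand of Mir1a-2 and within an intron of Mir133a-1hg, the host transcript of the miR-1 and miR-133 cluster. The 3′ side of Mir1a-2 held nearly all of its reads, with the 5′ side at 0.0417% ± 0.0306 (SD, n = 6).

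The let-7 family, which shares 1 seed and is abundant in differentiated tissue, supplied rows at Gm24111 and Gm25927. Gm24111-3p antisense (chr13:48537891-48537910), at the place of let-7f-5p of Mirlet7f-1, had 5057, 5805, 5435, 5494, 6671 and 7284 reads, and Gm24111-5p antisense, at let-7f-1-3p, had 216, 239, 193, 186, 248 and 261. Gm25927-3p antisense (chr17:17830366-17830386), at let-7e-5p, had 663, 857, 679, 669, 1169 and 812 reads, and Gm25927-5p antisense, at let-7e-3p, had 42, 20, 29, 39, 61 and 42. Both let-7 hairpins favoured the 5p arm, which took 96.4% ± 0.323 of Mirlet7f-1 and 95.4% ± 1.31 of Mirlet7e (SD, n = 6). The mean of the 5p rows was 1219 ± 125 CPM for let-7f-5p and 163 ± 20.1 CPM for let-7e-5p (SD, n = 6).

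Mir142 in the files is the hairpin on the minus strand, now annotated as Mir142b, and the leukocyte miRNA miR-142a lies on the other strand. Mir142-3p antisense (chr11:87756869-87756888), at the place of miR-142a-5p, had 7938, 7292, 5017, 4873, 6293 and 5076 reads, or 1251 ± 278 CPM (SD, n = 6). Mir142-5p antisense, at miR-142a-3p, had 662, 621, 342, 334, 373 and 306 reads, or 91.0 ± 34.0 CPM (SD, n = 6). The 5p arm of miR-142a took 93.4% ± 0.968 (SD, n = 6) of both arms. Hearts 1 and 2 were the 2 highest on both rows in CPM, and heart 6 was the lowest on both.

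Mir497 in the files is likewise the minus-strand hairpin, now Mir497b, opposite miR-497a, a miRNA with a miR-15/16-type seed that is clustered with miR-195. Mir497-3p antisense (chr11:70234720-70234743) had 1352, 1465, 1197, 1295, 1923 and 1733 reads, or 303 ± 18.5 CPM (SD, n = 6), and Mir497-5p antisense had 4, 3, 0, 3, 9 and 6. The 5p arm of miR-497a took 99.7% ± 0.156 (SD, n = 6). Its neighbour Mir195 has no hairpin annotated on the other strand, and its 5p arm had 1 antisense read against 29210 sense reads.

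The imprinted miRNA cluster on chromosome 12 gave 4 hairpins of this kind with 10 or more reads at an arm, all with the files naming a Gm hairpin on the minus strand. Gm24321-5p antisense, at miR-409-3p, had 29, 35, 43, 29, 67 and 47 reads, and Gm25400-5p antisense, at miR-299a-3p, had 5, 10, 9, 11, 20 and 7. Over the 6 hearts Gm25400-3p (miR-299a-5p) had 41 reads, Gm25750-5p (miR-380-3p) 33, Gm25252-5p (miR-376a-3p) 19 and Gm25252-3p (miR-376a-5p) 13. Of the pooled reads, the 5p arm took 2.34% at Mir409 (95% exact binomial interval 0.865 to 5.03%), 39.8% at Mir299a (30.3 to 49.9%), 2.94% at Mir380 (0.0744 to 15.3%) and 40.6% at Mir376a (23.7 to 59.4%). The intervals of Mir299a and Mir376a overlap, and those of Mir409 and Mir380 lie below both. In all, 12 of the 70 rows lie on chromosome 12, but Mir5135-3p, Mir3073-3p and Mir203-5p antisense among them lie outside this cluster. The share of chromosome 12 over all rows was not counted.

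Gm25641-3p antisense, at the place of miR-9-5p of Mir9-1, had 1, 6, 1, 3, 4 and 0 reads. miR-9 is known from the nervous system. Mir24-2-3p antisense held 4, 2, 3, 1, 4 and 2 reads at the place of miR-3074-5p, whose hairpin Mir3074-2 is annotated opposite Mir24-2. This is the reverse of the Mir3074-1 case, with the named hairpin the abundant one. The remaining 11 rows with a hairpin on the other strand had under 10 reads each and 39 reads together.

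**Figure D2:**
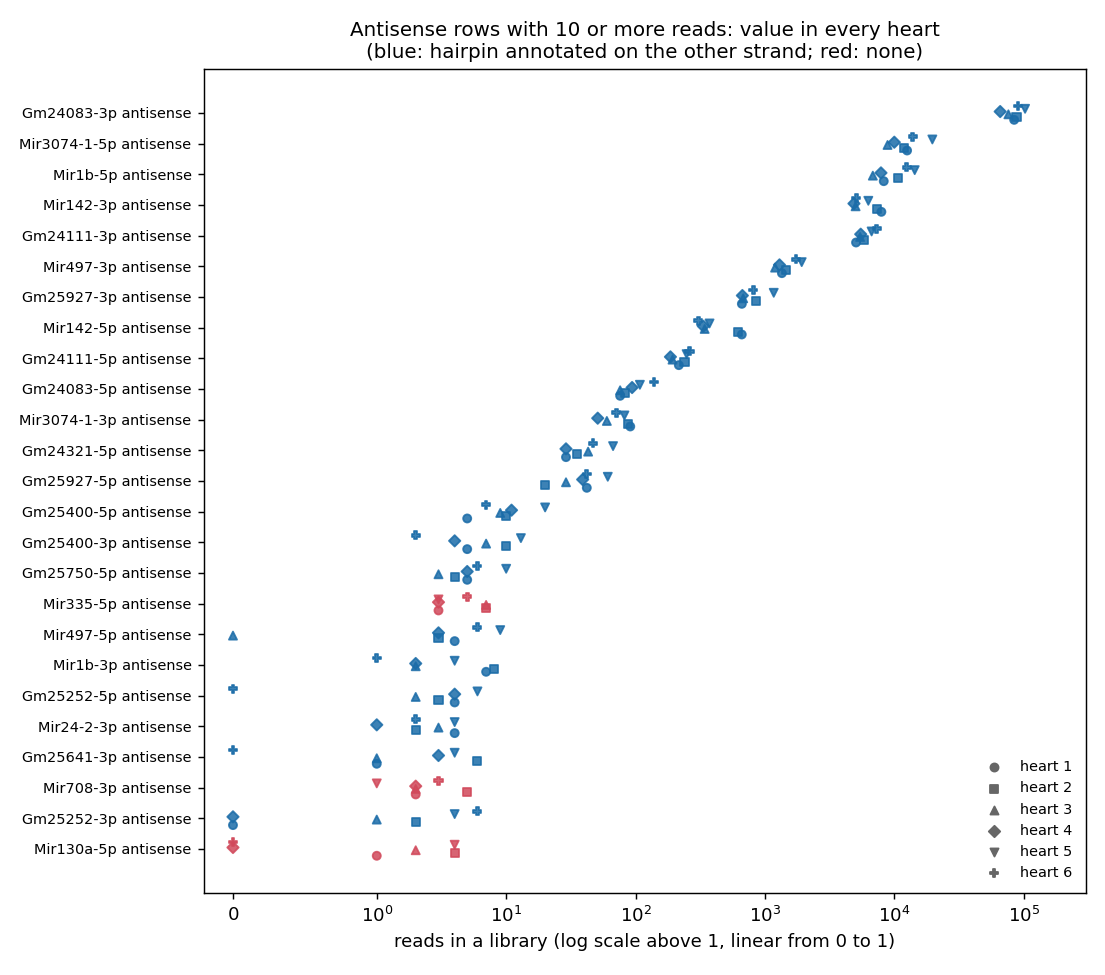
Reads in each of the 6 libraries (horizontal axis, log scale above 1 and linear from 0 to 1) for the 25 antisense rows with 10 or more reads in all, with a marker for each heart, blue for rows with a hairpin annotated on the other strand and red for rows without. The 6 hearts lie close together in the upper rows, and the red rows Mir335-5p, Mir708-3p and Mir130a-5p have at most 7 reads in a library.

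Counted by rows and not by reads, the positions mostly lay near the start of a known mature miRNA. RefSeq lists a mature miRNA on the read strand at 30 of the 33 rows with a hairpin on the other strand. It lists none at both Mir1b rows and at Mir338-5p antisense. The 5′ end of the named arm's position, read on the other strand, lay within 3 bases of the mature start in 24 of the 30. It was the same base in 4, with a median distance of 2 bases and a largest of 11, at Mir374-3p antisense. The offset was -9 bases at Mir3074-1-5p and -10 at Mir497-3p antisense, both before the start of the mature miRNA, so there the named position covers only part of it. The arm shares given above for Mir191, Mir24-1 and miR-497a rest on these positions. The files give positions of the named arms and no read ends, so the mature miRNA of each antisense row is assigned by position. Among the 37 rows without a GENCODE hairpin, 1 had a mature miRNA in RefSeq, miR-203b-3p at Mir203-5p antisense, which had 7 reads in all.

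In every pair of opposite hairpins that the files name, they name 1 hairpin only. The GENCODE annotation of GRCm38 has 32 such pairs. In 30 of them 1 hairpin is named, in 2 neither is, and in 0 both are. The unnamed hairpin had a transcript number above the highest one in the files in 30 of 30 pairs, whereas 298 of 2202 annotated miRNA transcripts are above it. The named hairpin was the longer in 23 of 29 pairs, of equal length in 4 and the shorter in 2. A remaining pair was not measured, because the files place the transcript named Mir136 on the plus strand while the annotation gives that transcript to Mir3071 on the minus strand. In 19 of the pairs at least 1 of the 70 rows is present, and antisense reads exceeded sense reads in 13 of these. The 6 with more sense reads were Mir24-2, Mir219-1, Mir338, Mir374, Mir337 and Gm23367. The files list 21 of the 70 rows under names that begin with Gm.

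Some antisense rows hold a mature miRNA that another gene copy also encodes, and there the antisense row is a part of the total for that miRNA. Of the reads listed for miR-24-3p, 64.5% ± 1.56 (SD, n = 6) stood on Mir3074-1-5p antisense and the rest on Mir24-2-3p sense, with 67.3%, 63.0%, 63.9%, 65.2%, 64.5% and 63.3% in hearts 1 to 6. For miR-1a-3p, if Mir1b-5p antisense is counted to it by its place on the 3′ side of Mir1a-2, the share on that row was 26.5% ± 0.864, against Mir1a-1-3p sense (SD, n = 6). For let-7f-5p the share on Gm24111-3p antisense was 15.8% ± 0.469, against Mirlet7f-2-5p sense (SD, n = 6). These shares varied little between hearts. For miR-9-5p the antisense row had 15 reads against 639 on the sense rows of Mir9-2 and Mir9-3. How the authors split reads that match several copies is not given in the sources used here, so these shares describe the tables and not the output of each gene.

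Sense and antisense reads at the same hairpin were then set against each other. Among hairpins with another on the opposite strand, 10 of 19 also had a sense row, with 653849 antisense against 59823 sense reads, and antisense was higher in 4 of the 10. The other 9 had antisense reads only, so no sense row of theirs is listed. Among hairpins without a partner, 28 of 35 had a sense row, with 98 antisense against 1199657 sense reads. That is 81.7 antisense reads per 1000000 reads of both strands (95% exact binomial interval 66.3 to 99.5). These 28 hairpins are in the set only because each had at least 1 antisense read, as 36 of the 670 named hairpins without a partner did. The rate and its interval therefore hold for these 28 and overstate the antisense share of all hairpins without a partner. Sense was higher in 25 of the 28, equal in 2, and lower in 1, Gm23685, with 2 antisense reads against 1. Across these 28 hairpins the coefficients between sense and antisense reads on the log10 scale were 0.08 (Pearson) and 0.01 (Spearman), given as a description of mostly single reads from shared libraries. Mir10a had 1 antisense read for 642806 sense reads, Mir26a-1 had 1 for 261208, and Mir1a-1 had 1 for 167006.

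**Figure D3:**
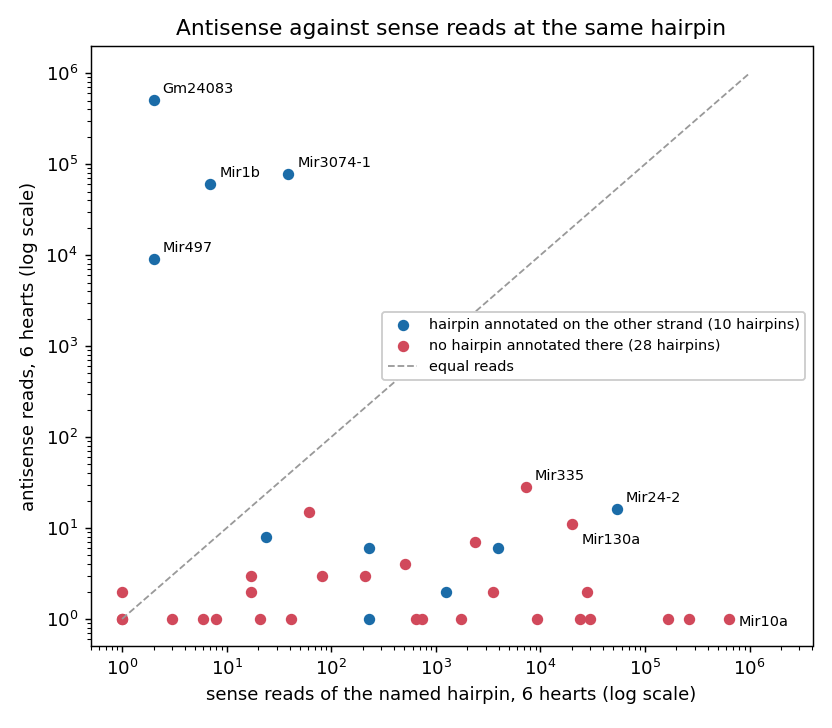
Antisense reads (vertical axis) against sense reads (horizontal axis) of the 38 hairpins with a row on both strands, summed over the 6 hearts, both on log scales, with blue for hairpins with another annotated on the other strand, red for those without, and a dashed line at equal reads; some points coincide. Gm24083, Mir3074-1, Mir1b and Mir497 lie far above the line, while Mir10a, with 642806 sense reads, had 1 antisense read.

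The difference between strands at the same arm was tested by edgeR (quasi-likelihood, library entered as a block) on all 22 arms that had a row on both strands and a mean of at least 10 reads. A call needed a Benjamini-Hochberg adjusted p under 0.05 and a 2-fold ratio. Over all 22 arms, 95.5% were called, 72.7% with sense higher and 22.7% with antisense higher. Of the 70 rows, 31 have no sense row at their arm and 22 were under the minimum, which left 17. Among the 31 are abundant rows: Gm24083-3p, Mir1b-5p, Mir142-3p, Gm24111-3p and Mir497-3p antisense, with 506601, 60458, 36489, 35746 and 8965 reads. The numbers of arms by direction therefore leave out arms with antisense reads only. Sense was higher in 14 of the 17, and antisense was higher in 3, all 3 with a hairpin on the other strand. The largest adjusted p among the 17 was 1.13e-14 in edgeR and 3.54e-09 in DESeq2. The standard errors of the edgeR fit, pooled over arms, were below counting error at arms with few reads, so ratios of pooled reads with their exact binomial intervals (95%, counting error only) are given in their place. Each arm passed the minimum through its abundant strand, so a difference was built into nearly every arm tested, and these counts describe directions only.

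Antisense was higher at Mir3074-1-5p, with 76718 reads against 7 sense reads, where the sense row, miR-3074-5p itself, had 1, 0, 2, 2, 1 and 1. That was 10960 antisense reads per sense read (interval 5319 to 27260). Mir3074-1-3p had 443 against 32 reads, or 13.8 antisense reads per sense read (interval 9.66 to 20.5). Sense reads there were 6, 7, 3, 5, 5 and 6, so the strands did not overlap in any heart. Gm24083-5p had 576 against 2 reads, or 288 per sense read (interval 79.4 to 2384). Arms under the minimum with more antisense than sense reads included Mir497-5p with 25 against 2 and Mir1b-3p with 24 against 7. Arms without a hairpin on the other strand were also among them. These were Mir130a-5p with 11 against 7, Mir183-3p with 4 against 1, Mir200a-5p with 3 against 1 and Gm23685-5p with 2 against 1.

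Among the 14 arms with more sense reads, 5 had a hairpin on the other strand. Mir24-2-3p had 42228 sense reads, which are miR-24-3p, and 16 antisense reads, or 2639 sense reads per antisense read (interval 1625 to 4618). Mir338-3p, in an intron of Aatk, had 3709 sense and 5 antisense reads, the latter at the place of miR-3065-5p. Mir219-1-5p had 81 sense and 6 antisense reads, or 13.5 sense reads per antisense read (interval 5.94 to 37.9). The arms Mir374-3p, with 74 and 2 reads, and Mir338-5p, with 227 and 1, completed the 5.

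The other 9 arms had no hairpin on the other strand. Mir335-5p, in an intron of the imprinted gene Mest, held 28 antisense reads, the most of any row without a partner, as 3, 7, 7, 3, 3 and 5 in hearts 1 to 6. Its sense reads were 503, 656, 458, 512, 647 and 675. Antisense was 0.805% of both (95% exact binomial interval 0.535 to 1.16%). Mir195-5p and Mir150-5p, the latter a lymphocyte miRNA, had 1 antisense read each against 29210 and 27918 sense reads. Mirlet7c-2-3p, Mir152-5p, Mir214-5p, Mir324-5p, Mir10a-3p and Mir1a-1-5p had 1 or 2 antisense reads against 128 to 1587 sense reads.

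Beside Mir335-5p, Mir708-3p and Mir130a-5p were the rows without a partner that had 10 or more reads. Mir708-3p, in an intron of Tenm4, had 2, 5, 2, 2, 1 and 3 antisense reads against 5, 6, 4, 7, 16 and 5 sense reads, so antisense was 25.9% of both (95% exact binomial interval 15.3 to 39.0%). Mir130a-5p had 1, 4, 2, 0, 4 and 0 antisense reads and 7 sense reads in all, while the hairpin as a whole had 20153 sense reads. A library with 0 reads allows up to 3, which is 0.499 to 0.756 CPM by library.

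The sequence read from the other strand resembles the opposite arm of the same hairpin, since the arms pair. For the 3 rows the best ungapped match within 5 bases of the named position is shown, with differing bases in capitals, first the antisense sequence and then the mature miRNA of the other arm.
Mir335-5p antisense: uuuuucGuuauugcucUugacc
mmu-miR-335-3p: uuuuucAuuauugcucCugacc
Mir708-3p antisense: UagAagcuCacaGucuagUugUg
mmu-miR-708-5p: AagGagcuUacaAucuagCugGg
Mir130a-5p antisense: UagCAcaauguGaaaagAgcUC
mmu-miR-130a-3p: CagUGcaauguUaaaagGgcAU
The mismatches were 2 of 22 bases at Mir335-5p, 6 of 23 at Mir708-3p and 7 of 22 at Mir130a-5p. Over the 25 rows without a partner hairpin for which both sequences were at hand, the median was 6 mismatches (range 0 to 17). It was also 6 (range 0 to 15) over 15 rows with a partner, and 8 (range 0 to 18) over 728 sense rows whose arm has no antisense row. Whether reads of the other arm were placed on these rows was not tested, because the files hold no reads.

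The other 34 rows without a partner had 59 reads together, with 22 rows of 1 read and 12 of 2 to 9. Only Mir335-5p and Mir708-3p of this class had a read in every heart. Mir183-3p, from the sensory and epithelial miR-183 cluster, had 4 antisense reads against 1 sense read, and Mir203-5p, from an epithelial miRNA, had 7 against 10. A gene was annotated on the read strand at 10 of the 37 rows, in an exon at 3, and on the named strand at 17. For the 33 rows with a partner a gene was annotated on the read strand at 16, in an exon at 6, and on the named strand at 9. The arms of a hairpin count as separate rows here, and the share over all rows was not counted.

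Whether a row varied between hearts beyond counting noise was asked with a chi-square test, which set its 6 counts against the library totals. Of all 381 rows with a mean of at least 10 reads, 73% varied at an adjusted p under 0.05, and of the 14 antisense rows with that mean 11 did. That share is near the background. The median coefficient of variation was 16.7% for the 14 rows and 17.3% for all 381. At these depths small differences passed the test, so the size of each spread is given below.

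Mir142-5p antisense (miR-142a-3p) spread the most among the rows with over 100 reads in every library, with a coefficient of variation of 37.3% and a 2.55-fold range from 139 CPM in heart 1 to 54.6 CPM in heart 6. Mir142-3p antisense (miR-142a-5p) ran from 1667 to 906 CPM in the same 2 hearts. The leukocyte miRNAs outside these rows had CPM values of 846, 936, 964, 1236, 783 and 992 for miR-150-5p and 176, 131, 141, 165, 139 and 109 for miR-223-3p in hearts 1 to 6. Heart 1 was highest for miR-223-3p but not for miR-150-5p, and the part of blood cells in the result was not tested. Fewer cells of a type and less RNA per cell cannot be told apart in such bulk samples.

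Gm24083-3p antisense (miR-191-5p) had a coefficient of variation of 4.30% and a 1.12-fold range in CPM, the smallest of the 14 on that scale, and it still varied beyond counting noise at its depth. With TMM factors, another scaling, its coefficient of variation was 7.38% with a 1.19-fold range, above the 4.97% of Mir497-3p antisense (6.09% in CPM), so the order of the steadiest rows depends on the scaling. Gm24111-5p antisense (let-7f-1-3p) stayed between 41.3 and 48.1 CPM, a 1.17-fold range that did not pass the test (chi-square adjusted p = 0.66, and 0.0634 with a 1.30-fold range under TMM). Gm24321-5p (miR-409-3p) and Gm25400-5p (miR-299a-3p) antisense also did not pass, at 62 to 250 reads in all. The calls of 3 low rows each depended on single libraries. Without heart 6, Gm24083-5p antisense lost its call (adjusted p from 0.00479 to 0.101), and without heart 2 so did Gm25927-5p antisense (from 0.00891 to 0.366). Mir3074-1-3p antisense, at an adjusted p of 0.0486, lost it without heart 1, 2, 4 or 6 (0.0523 to 0.255).

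**Figure D4:**
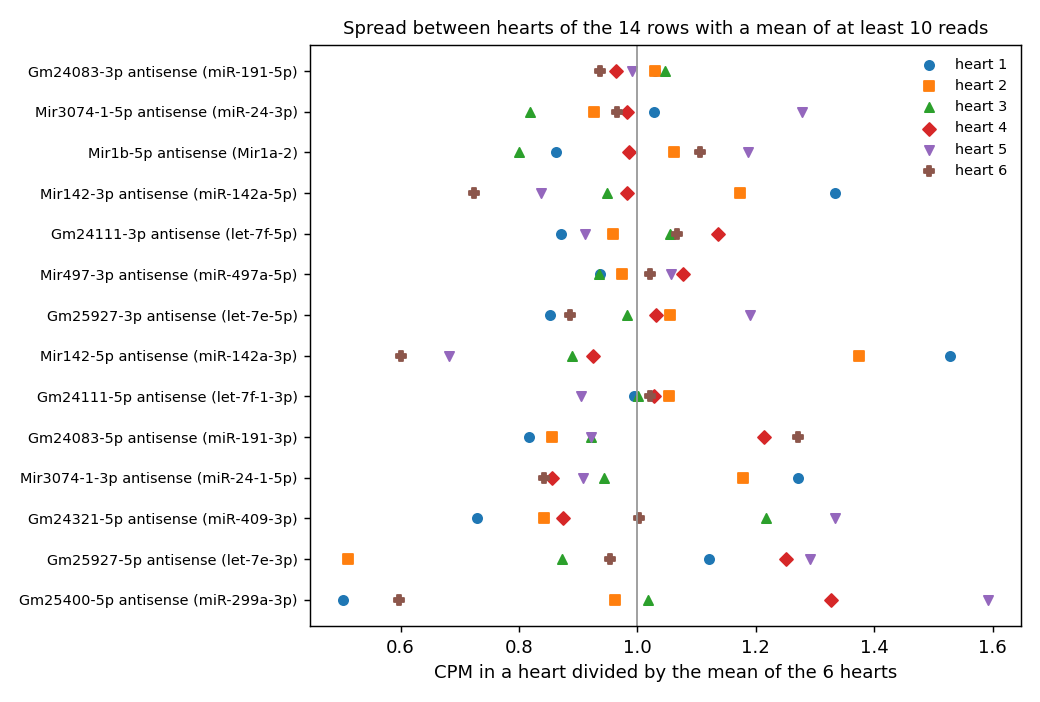
CPM in each heart divided by the mean of the 6 hearts (horizontal axis) for the 14 antisense rows with a mean of at least 10 reads, labelled with the miRNA or gene on the other strand, with a marker and colour for each heart and a grey line at the mean. Gm24083-3p lies within a 1.12-fold range, and Mir142-5p spreads over 2.55-fold with heart 1 highest and heart 6 lowest.

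The libraries held 3966197 to 6007351 counts, so 10 reads were 1.66 to 2.52 CPM. The cardiac miRNAs fitted the label, with miR-133a-3p at 83532 to 96509 CPM, miR-208a-3p at 879 to 1608 CPM and miR-499-5p at 1007 to 1250 CPM. The cardiac miR-208b-3p ranged from 65.3 to 189 CPM. The skeletal muscle miRNA miR-206-3p was at 0 to 0.252 CPM. Heart 4 stood apart for miR-375-3p, a pancreatic and endocrine miRNA, at 23.4 CPM against at most 2.16 CPM in the other hearts, and for the neuronal miR-124-3p, at 4.79 CPM against at most 0.805 CPM. The other neural marker, miR-9-5p, did not stand apart in heart 4 on its sense rows, and the pancreatic miR-217-5p is not given here. No antisense row with a mean of at least 10 reads had such a gap in heart 4.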

How the data were processed

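The authors deposited 1 table per library with raw read counts, whole numbers, for each miRNA arm, strand and hairpin transcript. Per the submitters' processing notes the build is GRCm38. The tools edgeR and DESeq appear there with no role or version. For the aligner, the counting and reads that match several places, the method is not given in the sources used here. Per the labels' protocols the libraries were made from total RNA with a TruSeq small RNA kit, with ligated adapters, so reads of different miRNAs are not numbers of molecules. No molecular identifiers are mentioned, so intervals and floors cover counting error only.

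The position in a row is that of the named arm. Hairpins and genes on either strand came from GENCODE M21 (GRCm38), and mature sequences from RefSeq (GRCm38.p6). CPM used the total of all rows of a library. Strands were compared with edgeR 4.0.16 in R 4.3.3, with library totals as library sizes. Its p-values use a spread pooled over the 22 arms. Classes of rows were compared with an exact sign-change permutation test in Python 3.11.15 over the 6 libraries, and variation with a chi-square test (scipy 1.17.1). Intervals are exact binomial (Clopper-Pearson, 95%). Both scripts that test many rows were tested on simulated data. The simulated pairs of strands had modest ratios, so they do not cover arms with few reads on a strand against many on the other. The members and lists were chosen with earlier results of these data known. Rows with a mean of at least 10 reads per library are given in every library, rows with 10 or more reads in all by name, and others by number and range or where a test or comparison singled them out, which was after their values were seen. The library block pairs the strands within a library, and replicate numbers pair nothing else, since there is 1 group. Other scalings, DESeq2 1.42.0, other minimums and single libraries left out were tried as alternatives.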

Additional observations from a re-analysis of the deposited data

Results flagged for a closer look

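Rows without a hairpin on the other strand took 5.84 CPM together in heart 2, against 2.86 to 3.79 CPM in the other 5 hearts. Heart 2 lay far from the others by Dixon's ratio, at 0.688 of the range against a critical value of 0.625 for 6 samples. Among 24 values checked in this way it was the only one, and chance alone gives about 1 in 20. The 29 reads of heart 2 were spread over 16 rows, with 7 at Mir335-5p, 5 at Mir708-3p and 4 at Mir130a-5p antisense.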

How the results depend on the processing

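The ratio of rows with to rows without a hairpin on the other strand kept its direction in all alternatives run. It was 11.43 on the log2 scale without the most abundant row of each class, 12.80 with RefSeq hairpins added to GENCODE, and 12.63 to 12.81 with each library left out. With 5 libraries the smallest exact p is 0.0625, so those fits could not pass. Without the rows of a mean of at least 10 reads, an alternative chosen like the RefSeq one after seeing the data, it fell to 0.95. For the strands at the same arm, 21 of 22 arms were called, 13 at a minimum of 100 reads, and 21 to 24 with each library left out. The arms of the 70 rows with sense higher numbered 14, and 22 without a minimum, 8 at a minimum of 100 reads and 23 with rows summed over a hairpin. Those with antisense higher numbered 3, and 5 without a minimum and 1 at 100 reads. Without the library as a block, with TMM factors and with DESeq2 the counts remained 14 and 3. Both strands of a library carry the same scaling, and each arm passed the minimum through its abundant strand. These counts could thus hardly change, and they lend no further support. Arms without a sense row are left out of them. The count of varying rows was 11, and 9 to 11 over its alternatives. With TMM factors the coefficient of variation of Gm24083-3p antisense rose from 4.30% to 7.38%. No result reversed. Single rows changed their side of the threshold in 10 cases, all in the variation test, 8 losing and 2 gaining a call, the 2 being Gm24321-5p antisense without heart 4 or heart 6 (chi-square adjusted p = 0.0465 and 0.0323). The alternatives that take other-strand hairpins from the files alone, and the median row of each class, gave no value, since the files list no opposite hairpin and the median row without one had 0 reads in a library. Depth limits the rows without a partner, of which 22 had 1 read.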
